A study of Mus musculus with 6 samples.

Results

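The genes described here are 37 genes of protein folding, quality control and stress signalling in the endoplasmic reticulum (ER), listed by their role in these pathways. Of the 37, 29 were measured among 12262 genes tested in mouse fetal liver. The livers came from embryos at E13.5 whose strain label names C57/Bl6 and 129Sv, and their total RNA was hybridised to 6 Illumina bead arrays. The 3 double transgenic arrays held liver that carried both R26-LSL-KITD816V and Vav-iCre. Of the 3 control arrays, 1 held liver with Vav-iCre alone (control 1) and 2 held liver with R26-LSL-KITD816V alone (controls 2 and 3). The first transgene places KITD816V, a form of the stem cell factor receptor that signals without its ligand, in the Rosa26 locus behind a stop that Cre removes. The second drives Cre from Vav, a promoter active in blood cells and not aimed at hepatoblasts, so recombination was directed to only part of the cells in the liver. The labels do not say whether each array held a separate liver, so n and the numbered livers below count arrays. The p-values measure the spread between these arrays, which may be technical in part.

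Secretory and membrane proteins enter the ER through the Sec61 channel, fold there with the help of chaperones, lectins and disulfide isomerases, and leave for the Golgi once folded. Proteins that fail to fold are drawn back into the cytosol and degraded, a route called ER-associated degradation (ERAD). The unfolded protein response watches this balance through 3 sensors of the ER membrane, IRE1 (Ern1), PERK (Eif2ak3) and ATF6. IRE1 splices the Xbp1 mRNA, ATF6 is cut to a transcription factor, and PERK slows translation while favouring ATF4. Hepatocytes and plasma cells are the textbook examples of cells that use this machinery heavily, and the fetal liver holds hepatoblasts beside a large population of maturing red cells.

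Cleaved ATF6 and spliced XBP1 are known to act through the ER stress response element (ERSE), which is CCAAT, 9 bases of any kind and CCACG, and through ERSE-II, which is ATTGG, 1 base of any kind and CCACG. RefSeq promoters of the GRCm38.p6 build, from 250 bases before to 50 after the start, were found for 31 of the 37 genes and searched on both strands. ERSE stood in 10 of the 31 (32.3%) and in 37 of 27025 genes with a promoter in the same table (0.137%). ERSE-II stood in 2 of the 31 (6.45%) and in 12 of the 27025 (0.0444%). The core of another XBP1 element, TGACGTGG, stood in none of the 31 and in 193 of all genes (0.714%). ERSE and ERSE-II do not overlap each other in these windows. The elements were described from genes of this very family, so their share among the 37 is a description and not independent evidence. The 13 matches are shown because this family is known for the element, and a match is a description, not a measured binding site. They are written with the fixed letters of each element in capitals and 10 bases on either side. Of these, 8 lay on the strand of the gene and 5 on the opposite strand, and each is written 5′ to 3′ on the strand named.
Hspa5, ERSE, chr2:34772015-34772053, + strand: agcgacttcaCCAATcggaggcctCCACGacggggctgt
Hsp90b1, ERSE, chr10:86705628-86705666, - strand: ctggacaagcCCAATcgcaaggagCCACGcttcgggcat
Hsp90b1, ERSE, chr10:86705523-86705561, + strand: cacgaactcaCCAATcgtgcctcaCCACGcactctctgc
Dnajb11, ERSE-II, chr16:22857842-22857872, + strand: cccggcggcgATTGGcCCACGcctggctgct
Dnajc3, ERSE, chr14:118937817-118937855, + strand: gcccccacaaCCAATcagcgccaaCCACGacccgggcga
Creld2, ERSE, chr15:88819510-88819548, - strand: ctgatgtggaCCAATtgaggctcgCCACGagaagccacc
Calr, ERSE, chr8:84847065-84847103, + strand: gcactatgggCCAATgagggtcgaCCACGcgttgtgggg
Canx, ERSE, chr11:50325790-50325828, - strand: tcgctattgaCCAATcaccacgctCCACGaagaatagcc
Pdia6, ERSE, chr12:17266481-17266519, + strand: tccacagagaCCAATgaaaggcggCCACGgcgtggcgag
Ero1lb, ERSE, chr13:12565672-12565710, - strand: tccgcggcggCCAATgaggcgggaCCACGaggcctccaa
Herpud1, ERSE-II, chr8:94386367-94386397, + strand: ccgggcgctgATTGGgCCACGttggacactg
Syvn1, ERSE, chr19:6046522-6046560, + strand: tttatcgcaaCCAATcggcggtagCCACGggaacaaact
Derl3, ERSE, chr10:75893232-75893270, - strand: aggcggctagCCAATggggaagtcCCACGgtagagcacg

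All of these matches lay within 212 bases before the start, except that of Dnajb11, which lay just after it.

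Levels are normalized log2 intensities of 1 probe per gene, and a difference is the double transgenic mean minus the control mean on that log2 scale. P-values come from limma and were adjusted by the Benjamini-Hochberg method across the 12262 genes, and a gene is said to have risen or fallen only below 0.05. Between 38.1% and 39.5% of the 45281 probes were detected per array. All 6 arrays lay on 1 chip, controls on the first positions and double transgenic livers on the last, so position and genotype cannot be told apart. The arrays numbered 1 departed from their group means together (correlation 0.536 across genes), and in the controls number 1 is also the only Vav-iCre liver, so number and genotype cannot be told apart there. Kit itself was at 9.21 ± 0.29 (SD, n = 3) in the controls and 9.98 ± 0.31 in the double transgenic livers, a difference of 0.77 (SE 0.23) with an adjusted p of 0.0816, and the files do not say whether its probe reads the transgene. In a bulk liver, fewer cells of a type and less RNA per cell cannot be told apart.

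In the double transgenic livers 1 of the 29 measured genes fell, Pdia5, a disulfide isomerase. None rose, and 28 did not pass the test. Of all genes tested, 6.4% fell and 2.53% rose, so 1 of 29 (3.45%) is near the background and is not a result about the group. At an unadjusted limma p below 0.05 in either direction there were 7 of 29 (24.1%), against 22.8% of all genes. Without regard to direction this is also near the background. All 7 differences were negative (Pdia5, Calr, Pdia6, P4hb, Xbp1, Ppp1r15a and Sec61b). The share of all genes at this p was not split by direction. The direction of the differences was less even: 22 of the 29 were negative (75.9%), against 42.4% of all genes, and the median difference was -0.25, against 0.07 over all genes. The median of the 29 was -0.16 without double transgenic 1, -0.39 without double transgenic 3 and -0.15 with median scaling. Without the filter on dim probes it was -0.12, there over all 37 genes. The medians over all genes in these settings, in the same order, were 0.07, 0.08, 0.13 and 0.02. In 8 of the 29 (27.6%) every double transgenic array lay below every control array, against 13.7% of all genes. In none did every double transgenic array lie above, against 14.8% of all genes. The 29 genes belong to shared pathways and are not independent of each other, and these counts are given without a test. With the numbered pairs as a block, 5 of the 29 fell (Pdia5, Calr, Pdia6, Xbp1 and Ppp1r15a), where 9.06% of all genes did. The labels do not state this pairing, which was inferred from these same arrays, so p-values with the block rest on an assumption. Without the arrays numbered 1 in both groups 4 of the 29 fell (Pdia5, Calr, Pdia6 and Xbp1), where 9.08% of all genes did.

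**Figure D1:**
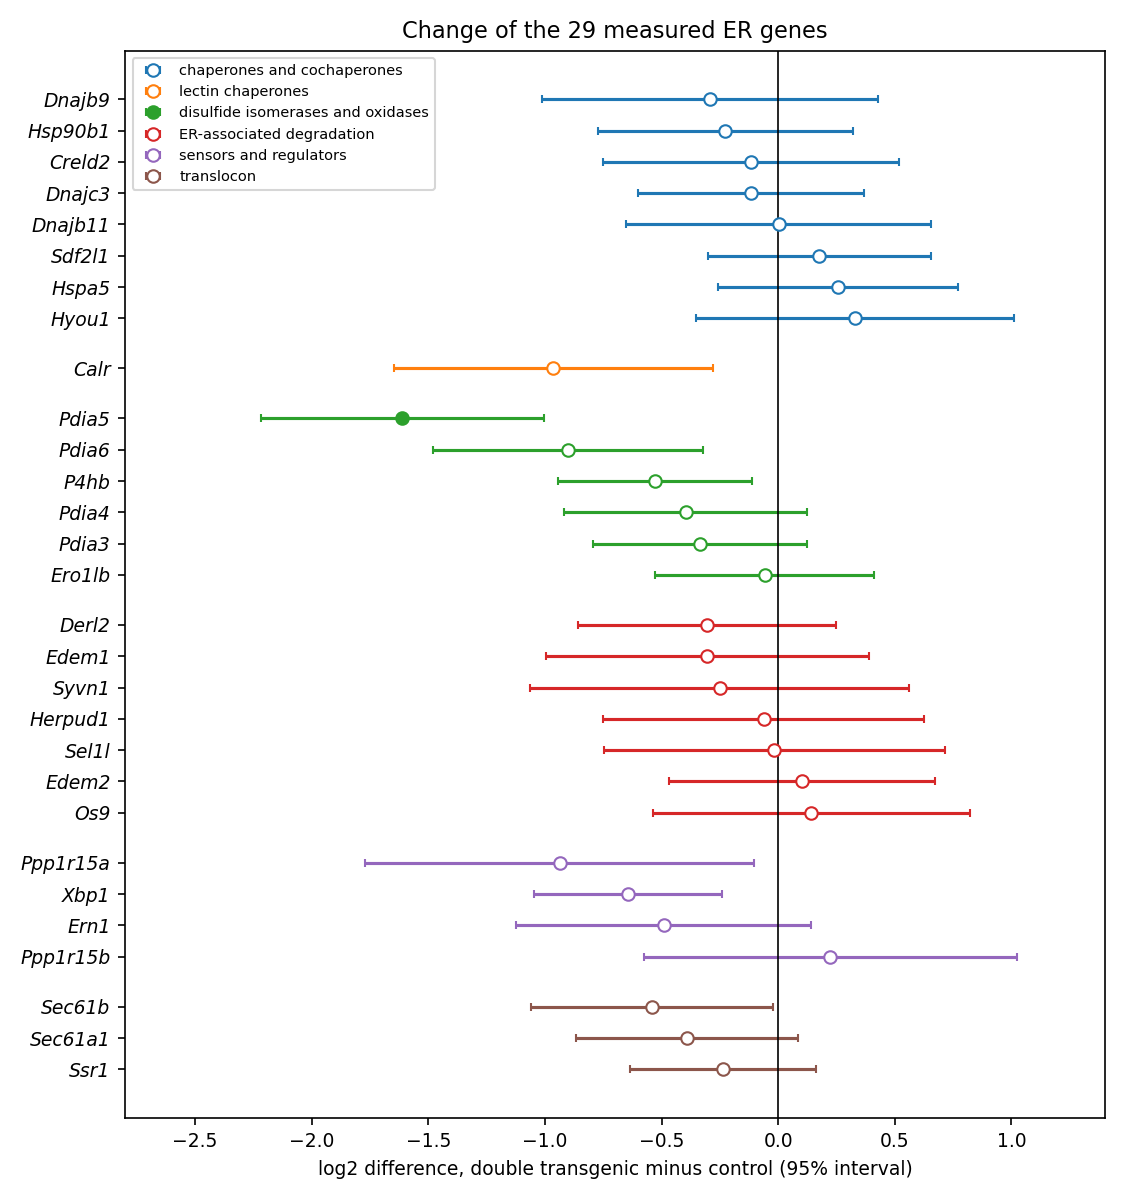
Log2 difference between double transgenic and control livers (x axis) for the 29 measured ER genes (y axis, grouped and coloured by role), with the 95% interval of the fit, not adjusted for many genes. The filled point is Pdia5, the gene past the adjusted threshold, at -1.61, and 22 of the 29 points lie left of 0.

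The chaperones of the ER lumen bind unfolded chains, and 8 of the 9 listed were measured. None of the 8 rose or fell, 4 differences were positive and 4 negative, and their median was -0.06. Hspa5, or BiP, the HSP70 chaperone that also holds the stress sensors inactive, is the usual readout of ER stress. Hspa5 levels were 7.27, 7.15 and 6.68 on control arrays 1 to 3 and 7.47, 6.998 and 7.39 on double transgenic arrays 1 to 3. The groups overlapped, since double transgenic 2 lay below controls 1 and 2. Its difference was 0.26 (SE 0.23, 95% interval -0.26 to 0.77, adjusted p = 0.55), an interval that leaves out a doubling on this scale, which understates changes of dim probes.

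Hsp90b1, or GRP94, is the HSP90 of the ER. On control arrays 1 to 3 the Hsp90b1 level was 13.36, 13.003 and 13.02, and on double transgenic arrays 1 to 3 it was 13.05, 12.44 and 13.20. Double transgenic 2 was the low array, and the difference of -0.23 (SE 0.24) was smaller than the double transgenic SD of 0.40. Hyou1, which exchanges the nucleotide of BiP, had the most positive difference of the 29, 0.33 (SE 0.30, adjusted p = 0.561). For Hyou1 the controls gave 5.51, 6.04 and 6.06 and the double transgenic livers gave 5.60, 6.31 and 6.69, in the order of their numbers. Double transgenic 1 lay among the controls here, and the other two lay above them.

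The J proteins bring clients to BiP. Dnajb9, or ERdj4, is a strong target of XBP1. Numbered 1 to 3, the controls had Dnajb9 levels of 8.66, 8.79 and 8.78, and the double transgenic livers had 8.08, 8.04 and 9.23. Double transgenic 3 stood above every control and the other two below every control, so the difference of -0.29 (SE 0.31) averages departures in opposite directions. Creld2, an ER protein known to be induced by ER stress, showed the same split. The level of Creld2 was 10.16, 10.24 and 10.33 in controls 1 to 3, against 9.79, 9.81 and 10.78 in double transgenic livers 1 to 3. Its difference was -0.12 (SE 0.28, adjusted p = 0.843).

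Dnajb11, or ERdj3, had almost equal group means. Dnajb11 levels were 10.88, 11.57 and 11.69 on control arrays 1 to 3 and 10.92, 11.52 and 11.70 on double transgenic arrays 1 to 3. The array numbered 1 was the low one in each group, and the difference of 0.0016 had a 95% interval of -0.65 to 0.66. Dnajc3, or p58IPK, another J protein, differed by -0.12 (SE 0.21). Sdf2l1, a partner of Dnajb11, differed by 0.18 (SE 0.21). On control arrays 1 to 3 the Dnajc3 level was 7.14, 7.23 and 7.44, and on double transgenic arrays 1 to 3 it was 7.33, 6.79 and 7.34. For Sdf2l1 the controls gave 7.56, 8.16 and 7.95 and the double transgenic livers gave 7.97, 7.98 and 8.24, in the order of their numbers. Both sets of arrays overlapped. Manf, an ER-resident factor that binds BiP and is listed on the array under its older name Armet, was not detected on any array.

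The lectin chaperones calreticulin (Calr) and calnexin (Canx) hold glycoproteins that carry a single glucose until they fold. Numbered 1 to 3, the controls had Calr levels of 9.23, 9.81 and 9.84, and the double transgenic livers had 8.05, 8.87 and 9.06. All 3 double transgenic arrays lay below the lowest control, and double transgenic 1 was lowest of all. The difference was -0.96 (SE 0.30, 95% interval -1.65 to -0.28), and its adjusted p was 0.0931, or 0.0127 with the numbered pairs as a block. The Canx probe was not detected on any array, so the membrane-bound partner was not measured.

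Disulfide isomerases make and rearrange the bonds between cysteines, and the Ero1 oxidases recharge them. Of the 7 genes listed, 6 were measured, and all 6 differences were negative, with a median of -0.46; that of Ero1lb turned positive when control 3 or double transgenic 1 was left out. Pdia5 fell, and the other 5 did not pass the test. The level of Pdia5 was 9.46, 10.47 and 10.17 in controls 1 to 3, against 8.56, 8.33 and 8.38 in double transgenic livers 1 to 3. Control 1 was the lowest control and the double transgenic arrays lay close together, all below it. The group means were 10.04 ± 0.52 and 8.42 ± 0.12 (SD, n = 3 each), and the difference was -1.61 (SE 0.27, 95% interval -2.22 to -1.01, adjusted p = 0.0069), a 3.06-fold lower level. Without the arrays numbered 1 the difference was -1.97 (SE 0.17), and with the numbered pairs as a block the adjusted p was 0.0125. The array holds 3 probes for Pdia5, all lower in the double transgenic livers, by differences of -2.04, -1.61 and -0.52, the last from a dim probe detected on 4 of 6 arrays.

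Pdia6, or P5, an isomerase that works beside BiP, came next. Pdia6 levels were 7.78, 7.82 and 8.12 on control arrays 1 to 3 and 7.42, 6.52 and 7.08 on double transgenic arrays 1 to 3. No array overlapped between the groups, and double transgenic 2 was the lowest. Its difference was -0.90 (SE 0.25), with an adjusted p of 0.0662, 0.0422 with the numbered pairs as a block. A dimmer probe that the gene table assigns to Pdia6, listed in the file as 1700015E05Rik, differed by 0.51 in the opposite direction. With the mean of both probes the difference was -0.20 (adjusted p = 0.656), so the probes of this gene disagree in direction.

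P4hb, the classical protein disulfide isomerase and also a subunit of the collagen prolyl hydroxylase, was lower on every double transgenic array. On control arrays 1 to 3 the P4hb level was 13.28, 13.60 and 13.58, and on double transgenic arrays 1 to 3 it was 12.86, 12.92 and 13.10. The difference was -0.53 (SE 0.18), with an adjusted p of 0.123, 0.062 with the numbered pairs as a block. Pdia4, or ERp72, did not overlap between the groups either, although double transgenic 1 lay only just under the lowest control. For Pdia4 the controls gave 9.17, 9.12 and 9.36 and the double transgenic livers gave 9.10, 8.37 and 8.99, in the order of their numbers. The difference was -0.40 (SE 0.23), with an adjusted p of 0.35, 0.183 with the numbered pairs as a block.

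Pdia3, or ERp57, is the isomerase recruited by calreticulin and calnexin. Numbered 1 to 3, the controls had Pdia3 levels of 12.12, 12.57 and 12.61, and the double transgenic livers had 11.95, 12.10 and 12.25. Double transgenic 3 lay above control 1, and the difference of -0.33 (SE 0.20) did not pass. Ero1lb, the oxidase now named Ero1b, was detected on 2 control arrays and 1 double transgenic array, which is just inside the limit for a measured gene. The level of Ero1lb was 4.98, 5.28 and 5.31 in controls 1 to 3, against 4.85, 5.17 and 5.38 in double transgenic livers 1 to 3. Its difference was -0.06 (SE 0.21). Neither probe of its relative Ero1l, now Ero1a, was detected on any array.

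**Figure D2:**
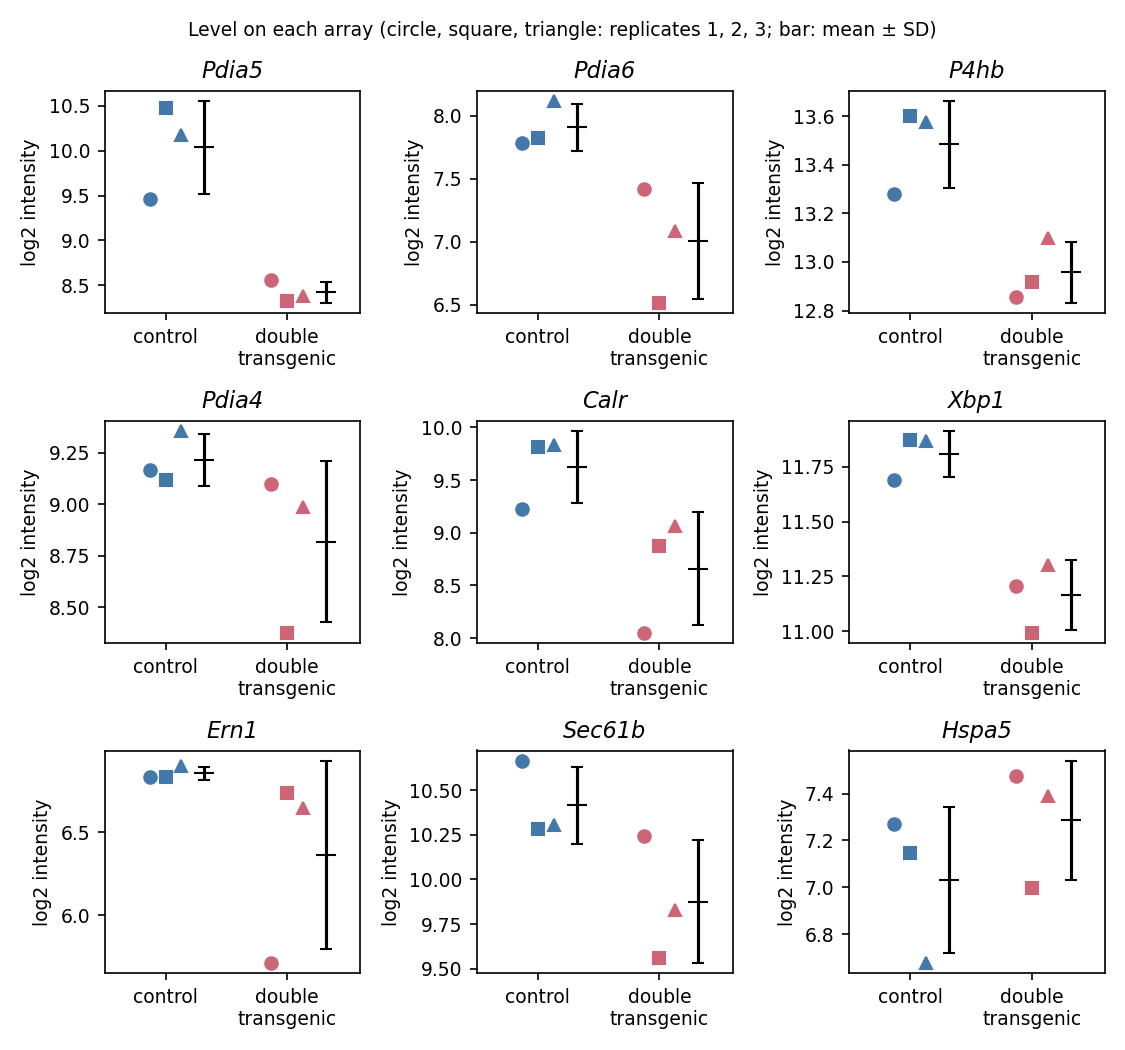
Normalized log2 intensity (y axis of each panel) on each of the 3 control and 3 double transgenic arrays for the 8 genes whose groups did not overlap and for Hspa5, with marker shape giving the replicate number and the bar the mean and SD. In the 8 genes every double transgenic array lies below every control array, while the Hspa5 groups overlap.

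Markers of other cell types were read beside these genes, where 6.4% of all genes fell and 2.53% rose. All 22 measured hepatoblast and hepatocyte markers of 24 listed fell, with a median difference of -2.07, and the Alb and Fgb probes did not reach the limit for a measured gene. The sum of the 22 intensities ran from 185671 to 239189 in the controls and from 52320 to 81754 in the double transgenic livers. Among them were Apoh (-3.05, adjusted p = 0.000849), a plasma glycoprotein, and Hnf4a (-2.10, adjusted p = 0.0029), a transcription factor that defines hepatocytes. Of 14 measured macrophage markers 10 fell, with a median of -1.60, and their summed intensity ran from 9642 to 9938 in the controls and from 2208 to 4486 in the double transgenic livers. Among the controls the hepatoblast sum was lowest in number 1 (185671). Among the double transgenic livers it was highest in number 1 (81754) and lowest in number 3 (52320). Relative to each gene's mean, the median over the 29 ER genes was lowest in number 1 and highest in number 3 in both groups. Within the double transgenic livers 17 of the 29 were lowest in number 1, and 7 were highest there (Pdia5, Pdia6, Pdia4, Sec61b, Ssr1, Derl2 and Hspa5). Of 14 erythroid markers 1 fell (Alas2, the first enzyme of heme synthesis in red cells), which at 7.14% is near the share of all genes. Of the 14 differences 13 were negative, and the median was -0.37. Their summed intensity ran from 112474 to 123489 in the controls and from 68115 (number 1) to 103077 (number 3) in the double transgenic livers. Of 6 endothelial markers 1 fell (Lyve1), with a median of -0.61 and sums from 1757 to 1854 against 1055 to 1489. None of 4 megakaryocyte markers rose or fell, nor did the 1 measured B lineage marker. Of 3 mast cell and basophil markers 1 rose and 1 fell. Every measured hepatoblast and macrophage marker was still detected on at least 1 array of each group. The part of these cell types in the lower levels of Pdia5, Calr, Pdia6, P4hb and Xbp1 was not tested.

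ERAD genes recognise, extract and ubiquitinate misfolded proteins. Of the 10 listed, 7 were measured and none rose or fell, with 5 negative and 2 positive differences and a median of -0.06. Herpud1, a stress-induced scaffold of the degradation complex, had an ERSE-II and was almost level between the groups. Herpud1 levels were 11.44, 11.93 and 11.88 on control arrays 1 to 3 and 11.23, 11.49 and 12.35 on double transgenic arrays 1 to 3. Double transgenic 3 was the highest of the 6 arrays and double transgenic 1 the lowest, and the difference was -0.06 (SE 0.30, adjusted p = 0.93). Sel1l, the adaptor that holds the ligase complex together, followed the same order. On control arrays 1 to 3 the Sel1l level was 8.36, 8.96 and 9.11, and on double transgenic arrays 1 to 3 it was 8.24, 8.76 and 9.38. Its difference was -0.02 (SE 0.32).

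Syvn1, or HRD1, is the ubiquitin ligase of that complex. For Syvn1 the controls gave 10.40, 11.48 and 11.53 and the double transgenic livers gave 10.33, 11.12 and 11.21, in the order of their numbers. The arrays numbered 1 were low in both groups, and the difference of -0.25 (SE 0.36) was smaller than the control SD of 0.64. Os9, a lectin that hands trimmed glycoproteins to Sel1l, differed by 0.14 (SE 0.30). Numbered 1 to 3, the controls had Os9 levels of 9.73, 10.29 and 10.47, and the double transgenic livers had 9.74, 10.53 and 10.65. Here too each number 1 array was the lowest of its group.

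The Edem proteins trim mannose from misfolded glycoproteins. Edem1 was detected on 3 control arrays and 2 double transgenic arrays. The level of Edem1 was 5.64, 5.88 and 6.22 in controls 1 to 3, against 4.99, 5.69 and 6.14 in double transgenic livers 1 to 3. Its difference was -0.30 (SE 0.30, adjusted p = 0.6). Edem2 differed by 0.10 (SE 0.25), with differences from -0.41 to 0.65 over its 4 probes, so its direction depends on the probe. Edem2 levels were 9.61, 10.13 and 10.27 on control arrays 1 to 3 and 9.76, 10.43 and 10.12 on double transgenic arrays 1 to 3.

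Derlins form the channel through which ERAD substrates are thought to leave the ER. On control arrays 1 to 3 the Derl2 level was 8.83, 7.99 and 8.18, and on double transgenic arrays 1 to 3 it was 8.16, 7.97 and 7.95. Control 1 was the highest array for Derl2, unlike for most of these genes, and the difference was -0.31 (SE 0.24). Derl1 and Derl3 were not measured, each with a probe detected on 1 double transgenic array where 3 arrays were required, and the Edem3 probe was detected on none.

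Among the sensors and regulators, 4 of 6 listed genes were measured, and the median difference was -0.57. Xbp1, the transcription factor made when IRE1 splices its mRNA, was lower on all 3 double transgenic arrays. For Xbp1 the controls gave 11.69, 11.87 and 11.87 and the double transgenic livers gave 11.21, 10.99 and 11.30, in the order of their numbers. The spread within each group was small, and the difference was -0.64 (SE 0.18, 95% interval -1.05 to -0.24). Its adjusted p was 0.0608, 0.043 with the numbered pairs as a block, and it passed in 9 of the 19 alternative settings. Its difference lay between -0.73 and -0.50 over all 19. The files do not give the position of the probe, so spliced and unspliced Xbp1 were not told apart.

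Ern1, the gene of IRE1, was lower on all 3 double transgenic arrays, although only double transgenic 1 was far below the controls. Numbered 1 to 3, the controls had Ern1 levels of 6.83, 6.84 and 6.90, and the double transgenic livers had 5.71, 6.73 and 6.65. The difference was -0.49 (SE 0.28, adjusted p = 0.339). Both probes of Atf6 and both of Eif2ak3 were undetected on all arrays, so of the 3 sensors only Ern1 was measured.

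Ppp1r15a, or GADD34, directs a phosphatase to eIF2α and is known to be induced downstream of ATF4. The level of Ppp1r15a was 11.22, 11.80 and 11.84 in controls 1 to 3, against 9.85, 10.90 and 11.30 in double transgenic livers 1 to 3. Double transgenic 1 was the lowest, and double transgenic 3 lay just above control 1. The difference was -0.94 (SE 0.36), with an adjusted p of 0.169, 0.0293 with the numbered pairs as a block. Ppp1r15b, the subunit with the same role in unstressed cells, differed by 0.22 (SE 0.35, 95% interval -0.58 to 1.02). Ppp1r15b levels were 7.33, 7.99 and 7.63 on control arrays 1 to 3 and 7.12, 7.99 and 8.52 on double transgenic arrays 1 to 3. Its double transgenic arrays covered a wider range than the controls.

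The translocon genes were all measured, and all 3 differences were negative, with a median of -0.39. Sec61b, a small subunit of the channel, did not overlap between the groups. On control arrays 1 to 3 the Sec61b level was 10.67, 10.28 and 10.30, and on double transgenic arrays 1 to 3 it was 10.24, 9.56 and 9.83. Its difference was -0.54 (SE 0.23), with an adjusted p of 0.201, 0.061 with the numbered pairs as a block. A second probe gave -0.55. Sec61a1, the pore itself, differed by -0.39 (SE 0.21), while a dimmer probe of it gave 0.11. For Sec61a1 the controls gave 9.19, 9.69 and 9.80 and the double transgenic livers gave 9.20, 9.23 and 9.08, in the order of their numbers. Control 1 lay within the double transgenic range. Ssr1, a subunit of the translocon-associated complex, differed by -0.24 (SE 0.17). Numbered 1 to 3, the controls had Ssr1 levels of 8.84, 8.87 and 8.78, and the double transgenic livers had 8.79, 8.51 and 8.47.

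For the 28 genes that did not pass, the 95% intervals say which sizes of change the arrays leave possible, gene by gene and without adjustment. In 22 of the 28 the interval included 0, and in 6 it lay wholly below 0. In 18 it lay within -1 to 1, that is, within a 2-fold change either way. In 26 of the 28 the upper end was under 1, the exceptions being Hyou1 and Ppp1r15b. A rise of 2-fold or more on this scale was therefore outside the interval for BiP, Hsp90b1, Herpud1, Dnajb9, Xbp1 and most others of the group. BiP rests on 1 probe at a mean level of 7.16, against 13.01 for Hsp90b1. The offset of the background correction understates changes of dim probes.

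Arrays of the same group also differed from each other across the 29 genes. Control 1 was the lowest control in 23 of the 29 genes, and double transgenic 1 was the lowest double transgenic array in 17. Double transgenic 3 was the highest of its group in 19 of the 29. Measured from the mean of all 6 arrays, the median over the 29 genes was -0.03, 0.18 and 0.24 in controls 1 to 3 and -0.36, -0.20 and 0.15 in double transgenic livers 1 to 3. Double transgenic 3 therefore lay above control 1 by this median, although most group differences were negative. Same-numbered arrays differed in the negative direction in all 3 pairs for 14 genes and in the positive direction in all 3 pairs for 2, Hyou1 and Os9. These pairs were not counted over all genes, so the 2 counts are not a result about the group.

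**Figure D3:**
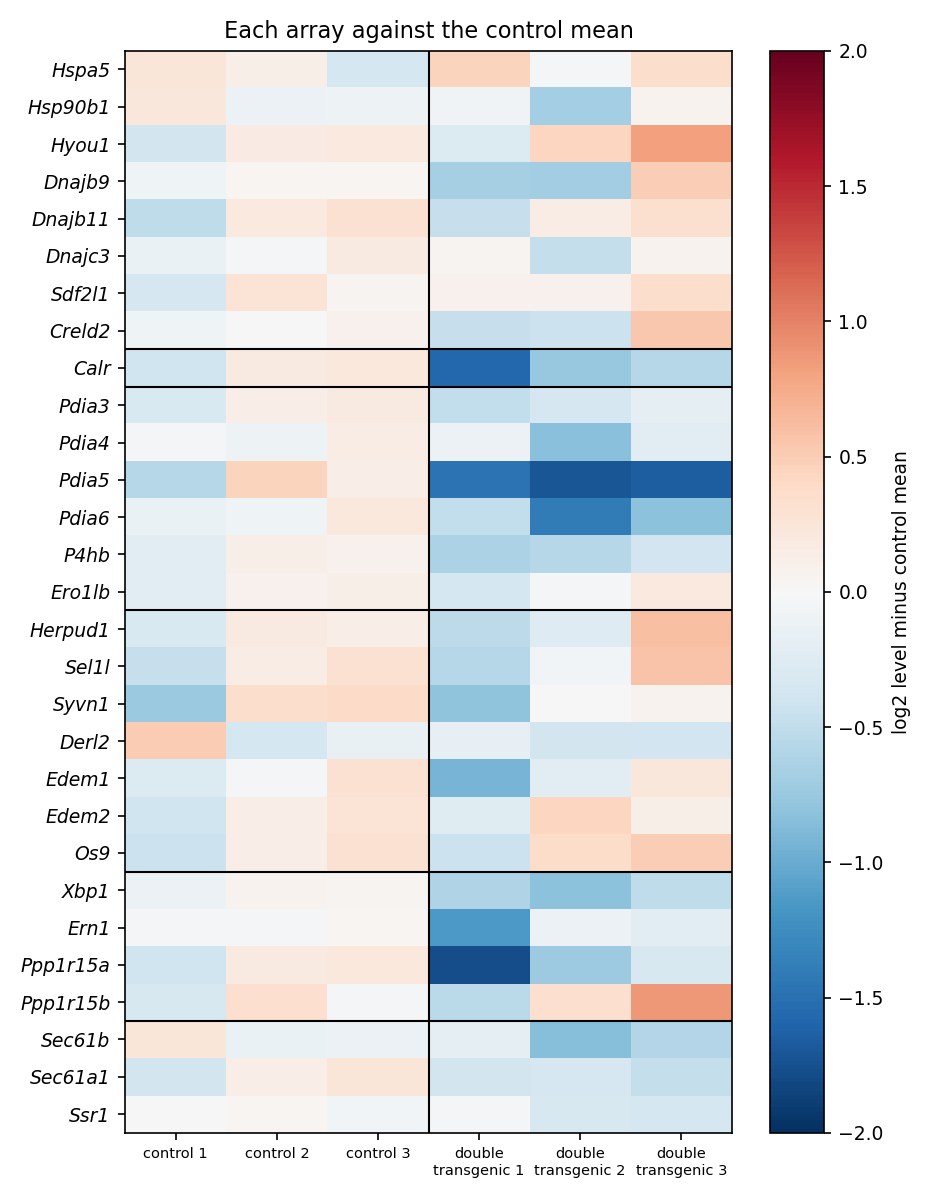
Normalized log2 level of each of the 29 genes (rows, grouped by role) on each array (columns) minus that gene's control mean, with blue lower and red higher. Control 1 is the lowest control in 23 of the 29 rows, and the rows of Pdia5, Pdia6 and Calr are blue on all 3 double transgenic arrays.

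Genes with and without a promoter element are set side by side here. Of the 12 genes shown above with an ERSE or ERSE-II, 10 were measured, and none of them rose or fell, with a median difference of -0.12 and a range from -0.96 (Calr) to 0.26 (Hspa5). The 16 measured genes with a RefSeq promoter and neither element had a median of -0.32, and 1 of them, Pdia5, fell (6.4% of all genes did). With the numbered pairs as a block, 2 of the 10 fell (Calr and Pdia6) and 3 of the 16 (Pdia5, Ppp1r15a and Xbp1), where 9.06% of all genes did. No test was made of the difference between these medians.

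Other genes of the same pathways were read from lists of 120 genes, of which 102 were measured. Of these 5 rose (4.9%), 4 fell (3.92%) and 93 did not pass, and the median difference was -0.04. Of all genes tested, 2.53% rose and 6.4% fell, so the count that fell is not a result about these genes. The counts of single lists below are to be read against the same shares. Among other folding factors 2 of 20 fell. These were Fkbp11 (-1.98, SE 0.33, adjusted p = 0.00694), a prolyl isomerase of the ER, and Txndc12 (-0.71, SE 0.17, adjusted p = 0.0386), a thioredoxin-like ER protein. In N-glycosylation and glycan trimming 1 of 13 fell, Mcfd2 (-0.71, SE 0.17, adjusted p = 0.0392), which helps to carry glycoproteins out of the ER. Among other ERAD genes 1 of 20 rose, Fbxo6 (1.03, SE 0.22, adjusted p = 0.0208), a ubiquitin ligase subunit that binds glycoproteins. Among other stress sensors and effectors 1 of 9 fell, Creb3l3 (-2.41, SE 0.22, adjusted p = 0.00103), an ER membrane transcription factor typical of hepatocytes. None of 21 translocation and signal peptidase genes and none of 10 genes of COPII vesicles rose or fell. At an unadjusted p below 0.05 in either direction limma gave 1 of the 21 and 2 of the 10, against 22.8% of all genes. In the ATF4 and CHOP branch, which PERK and other eIF2α kinases feed, 4 of 9 rose, namely Trib3 (3.65), Chac1 (2.74), Ddit3 (1.49) and Sesn2 (1.31), while Atf4 itself differed by 0.20 (adjusted p = 0.666). The count of this branch ran from 2 to 7 over the 19 alternative settings.

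**Figure D4:**
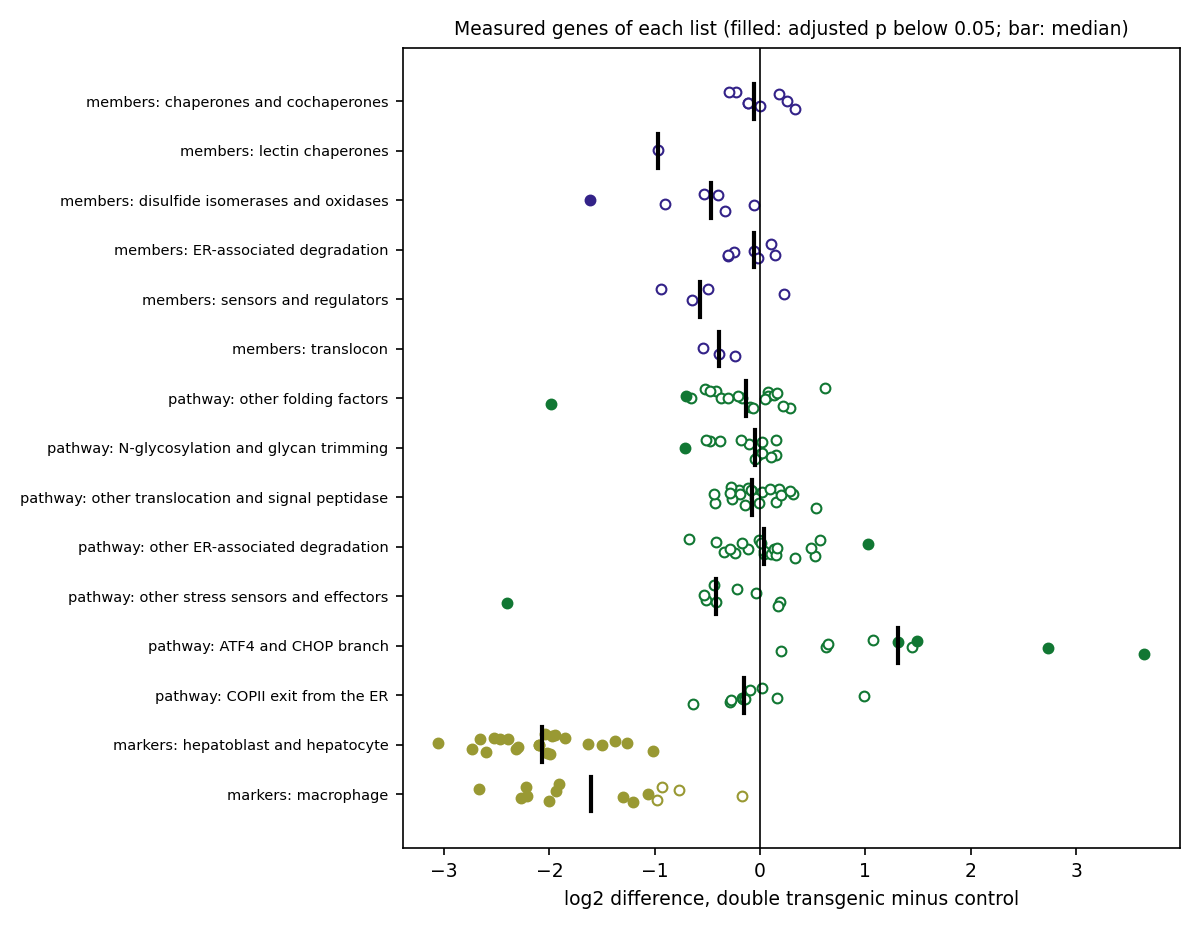
Log2 difference (x axis) of every measured gene in each list (y axis), with filled points past the adjusted threshold and a black bar at the list's median. The member lists lie between -1.61 and 0.33, the ATF4 and CHOP branch lies wholly right of 0, and the hepatoblast markers lie wholly left of -1.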

How the data were processed

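Bead array intensity was deposited by the authors for 45281 probes on the linear scale and without normalization between arrays, with a detection p-value, also deposited, beside each value. The submitters' processing notes name GenomeStudio, without a version. A second deposited table, the authors' value table, holds intensity values that differed from a linear quantile normalization of the first table by at most 0.303% for any probe, and it served as an alternative.

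The background was corrected by normexp in limma 3.58.1 (R 4.3.3), with an offset of 16 and with detection p-values standing in for the negative control beads, and log2 values were then quantile normalized. Probes with a detection p below 0.05 on at least 3 of 6 arrays were kept (17855), and the brightest kept probe stood for each gene, which gave 12262 genes. The offset understates changes of dim probes. Older symbols were replaced with those of RefSeq (GRCm38.p6); 27380 probes had a current symbol, 8359 were updated and 9524 kept the file's name. Group differences were tested two-sided with lmFit and eBayes, and p-values were adjusted by the Benjamini-Hochberg method across the whole table, with 0.05 as the threshold. The precision is limited by 3 arrays per group.

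The titles number both groups 1 to 3. Deviations from the group means correlated across genes between same-numbered arrays at 0.536, 0.283 and 0.206, so the numbers were taken to pair the arrays and served as a block in an alternative. The labels do not state this pairing. It was inferred from the same data, so the p-values with the block rest on an assumption. The other alternatives changed the background correction, the scaling, the probe filter, the rule for several probes, the moderation and the arrays left out. All 37 members are named; of the other lists, up to 4 genes past the threshold are named by smallest adjusted p. Hnf4a was named beyond that rule, after its value was seen. The members and lists were chosen with earlier results of these data known, and no list was tested as a set. The fit and its threshold, but not the steps before them, were tested on simulated data with 12062 genes left unchanged. The simulated noise was drawn independently for each array, without the departures that same-numbered arrays shared in these data. There 0 of 50 genes with a log2 change of 0.5 were called, 19 of 50 with a change of 1 and 44 of 50 with a change of 2. Changes of 1 or less were thus mostly missed. Protein sequences were not analysed here.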

Additional observations from a re-analysis of the deposited data

How the results depend on the processing

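Pdia5 fell under all 19 alternatives, with differences from -1.97 to -1.35 and adjusted p from 0.000201 to 0.0334, and no member rose under any of the 19. The number of members that fell was 1 as reported. It was 3 without background correction, 2 with an offset of 50, 2 with cyclic loess, 3 in the authors' value table, 2 without the filter on dim probes and 3 with trend and robust moderation. It was 8 with array weights, 5 with the replicate block and 4 without the arrays numbered 1. Leaving out 1 array at a time gave 1 to 2, the 2 without double transgenic 1 (Pdia5 and Pdia6). These counts are to be read against all genes, of which 785 of 12262 fell as reported. Of the 12262, 676 fell without background correction, 760 with an offset of 50, 861 with cyclic loess and 677 in the authors' value table. Trend and robust moderation gave 783, array weights 1511, the replicate block 1111 and the set without the arrays numbered 1 gave 1113. Without the filter on dim probes 623 of 28884 fell. Over the settings Xbp1 passed in 9, Pdia6 and P4hb in 4 each, Calr in 3, Ppp1r15a in 2, and Sec61b and Sec61a1 in 1 each. The replicate block changed no other call than those of Calr, Pdia6, Xbp1 and Ppp1r15a. The cause of these changes was not tested.

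Genes near 0 changed sign. With median scaling, which put the median of all genes at 0.13 in place of 0.07, Creld2 was at 0.0098, Herpud1 at 0.068 and Sel1l at 0.10. Dnajb11 was at -0.039 with cyclic loess and -0.060 with array weights, and Sel1l at 0.016 with the mean of kept probes. Without the arrays numbered 1, Dnajb11 was at -0.018, Creld2 at 0.0081, Herpud1 at 0.015 and Sel1l at 0.035. Leaving out 1 array at a time, Dnajb11 ran from -0.25 to 0.23, Edem2 from -0.095 to 0.27, Os9 from -0.077 to 0.43, Herpud1 from -0.39 to 0.17, Sel1l from -0.31 to 0.26 and Ero1lb from -0.18 to 0.086. In the same way Creld2 ran from -0.44 to 0.051, Syvn1 from -0.62 to 0.026, Edem1 from -0.57 to 0.0042, Hsp90b1 from -0.38 to 0.0027, Dnajc3 from -0.21 to 0.065 and Ppp1r15b from -0.10 to 0.60.

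Over all genes, 310 rose and 785 fell as reported, 1238 and 1511 with array weights, 632 and 1111 with the replicate block, and 717 and 1113 without the arrays numbered 1. Leaving out 1 array at a time gave 100 to 453 that rose and 455 to 942 that fell. Signal over background is the limit for 8 of the 37 members, whose 12 probes were detected on no array (10) or on 1 (2).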
